A study of Mus musculus with 6 samples.

Results

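Tuft cell genes were examined in mouse lung tumours with and without loss of Keap1. The genes are 10 markers of tuft cells, Avil, Trpm5, Chat, Gfi1b, Dclk1, Il25, Gng13, Alox5, Ptgs1 and Plcg2, each matched by its symbol to 1 Ensembl gene among the 56980 in the count table, with no filter on expression. Messenger RNA of tumours labelled small cell lung cancer was sequenced, with lung as the tissue, in 3 QKO tumour samples of genotype Control and 3 QKO tumour samples of genotype Keap1 knockout, all about 4 months after virus injection. QKO, a name both groups carry, is not spelled out in the labels. They also do not give the way Keap1 was lost or whether replicates are separate animals. The p-values thus reflect only the spread between these samples, which need not be the spread between animals. The comparison asks how loss of Keap1, the adaptor that directs the transcription factor NRF2 to degradation, goes with the RNA of tuft cell genes.

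Tuft cells are rare chemosensory cells of airway and gut epithelium with a brush of microvilli. They detect ligands through a taste-like chain, in which a receptor signals through a G protein to a phospholipase and calcium then opens the channel TRPM5, and they answer by releasing the cytokine IL-25, acetylcholine and the lipid mediators leukotrienes and prostaglandins. The POU factor POU2F3 is needed for their formation, and a subtype of human small cell lung cancer that lacks neuroendocrine features expresses POU2F3 and other tuft cell genes. Several of the 10 genes are also used by other cells: DCLK1 by neurons, CHAT by cholinergic neurons, ALOX5 and PLCG2 by myeloid and B cells, PTGS1 by platelets and many other cells, and GFI1B by megakaryocytes and erythroid cells.

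The start regions of Avil and Dclk1 are shown because these were the only 2 of the 10 genes with every knockout library below every control library. Each window runs from 250 bases before to 50 bases after an annotated start in RefSeq on build GRCm38.p6, an earlier build than the mm39 of the counts, and is printed 5′ to 3′ on the gene's strand. RefSeq windows matched 9 of the 10 genes, 11 windows in all. Capitals mark ATGCAAA, the first 7 bases of the octamer ATGCAAAT that POU2F factors bind, on either strand.

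Avil, chr10:127000459-127000758, plus strand: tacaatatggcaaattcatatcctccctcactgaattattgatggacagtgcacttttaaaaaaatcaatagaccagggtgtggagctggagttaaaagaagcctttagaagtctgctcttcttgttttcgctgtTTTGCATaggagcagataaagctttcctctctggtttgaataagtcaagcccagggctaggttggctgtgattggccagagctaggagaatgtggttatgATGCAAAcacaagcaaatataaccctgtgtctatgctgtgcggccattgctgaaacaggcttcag

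Dclk1 first window, chr3:55242114-55242413, plus strand: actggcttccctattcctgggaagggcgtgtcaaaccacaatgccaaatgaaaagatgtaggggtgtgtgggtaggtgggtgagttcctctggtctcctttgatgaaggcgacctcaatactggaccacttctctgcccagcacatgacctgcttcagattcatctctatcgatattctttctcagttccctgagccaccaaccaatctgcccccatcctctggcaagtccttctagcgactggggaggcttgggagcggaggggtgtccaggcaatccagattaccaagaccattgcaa

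Dclk1 second window, chr3:55461478-55461777, plus strand: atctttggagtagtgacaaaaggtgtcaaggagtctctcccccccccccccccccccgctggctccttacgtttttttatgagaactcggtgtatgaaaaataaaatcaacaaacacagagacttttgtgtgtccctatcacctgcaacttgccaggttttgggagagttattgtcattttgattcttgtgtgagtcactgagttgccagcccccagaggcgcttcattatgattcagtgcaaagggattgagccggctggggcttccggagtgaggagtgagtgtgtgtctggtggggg

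The Avil window held ATGCAAA at position -15 from the start and its reverse complement TTTGCAT at position -115, and no other window of these genes held it. In all RefSeq windows of this length, 32851 in number, 4.63% held ATGCAAA on either strand and 1.74% the whole octamer ATGCAAAT, which none of the 11 windows held. The antioxidant response core bound by NRF2, searched as TGACNNNGC on both strands, was found in the window of Gfi1b and in no other of the 11, against 12.4% of all windows. These are matches of letters and do not show binding. The Dclk1 windows belong to separate starts of longer and shorter transcripts, which counts per gene do not separate.

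Library totals ran from 18731515 to 23759892 reads, and 17901 genes had enough reads to be tested. Levels are given as CPM, read counts scaled to a common library total with TMM factors, and fold changes come from edgeR's quasi-likelihood test of knockout against control with Benjamini-Hochberg adjustment over all tested genes and a threshold of 0.05. In this test 4.31% of genes were called (771), 2.42% higher and 1.89% lower in the knockout. A library without a read of a gene allows up to 3 reads, or 0.132 to 0.152 CPM depending on the library, for counting error only. The label small cell lung cancer was checked against 9 neuroendocrine markers, whose summed level was 5096 CPM in control 3 and 23.98 to 165 CPM in the other 5 libraries. Control 2 had 34640 CPM of 8 summed fibroblast markers, against 411 to 5853 CPM in the others, and control 1 had 6868 CPM of 6 summed basal and squamous markers, against 1.10 to 61.9 CPM. Each control thus stood apart in its own way, their part in the levels below was not tested, and a value that rests on 1 of them is given with and without it.

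All 10 tuft cell genes had reads, but 5 of them, Trpm5, Chat, Gfi1b, Il25 and Gng13, had at most 17 reads in any library and were left out of the test by the filter. The 5 tested genes were Avil, Dclk1, Alox5, Ptgs1 and Plcg2. Of these, 1 was called, Avil, which fell in the knockout, and 2 had an unadjusted p below 0.05, against 30.7% of all tested genes. In Avil and Dclk1 every knockout library lay below every control library, a separation in this direction seen in 19.1% of all tested genes. The median log2 fold change was -0.47 over the 5 tested tuft cell genes and -0.08 over all genes tested. The sensing and output genes Trpm5, Gng13, Chat and Il25 were thus known from a few reads per library in both groups.

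**Figure D1:**
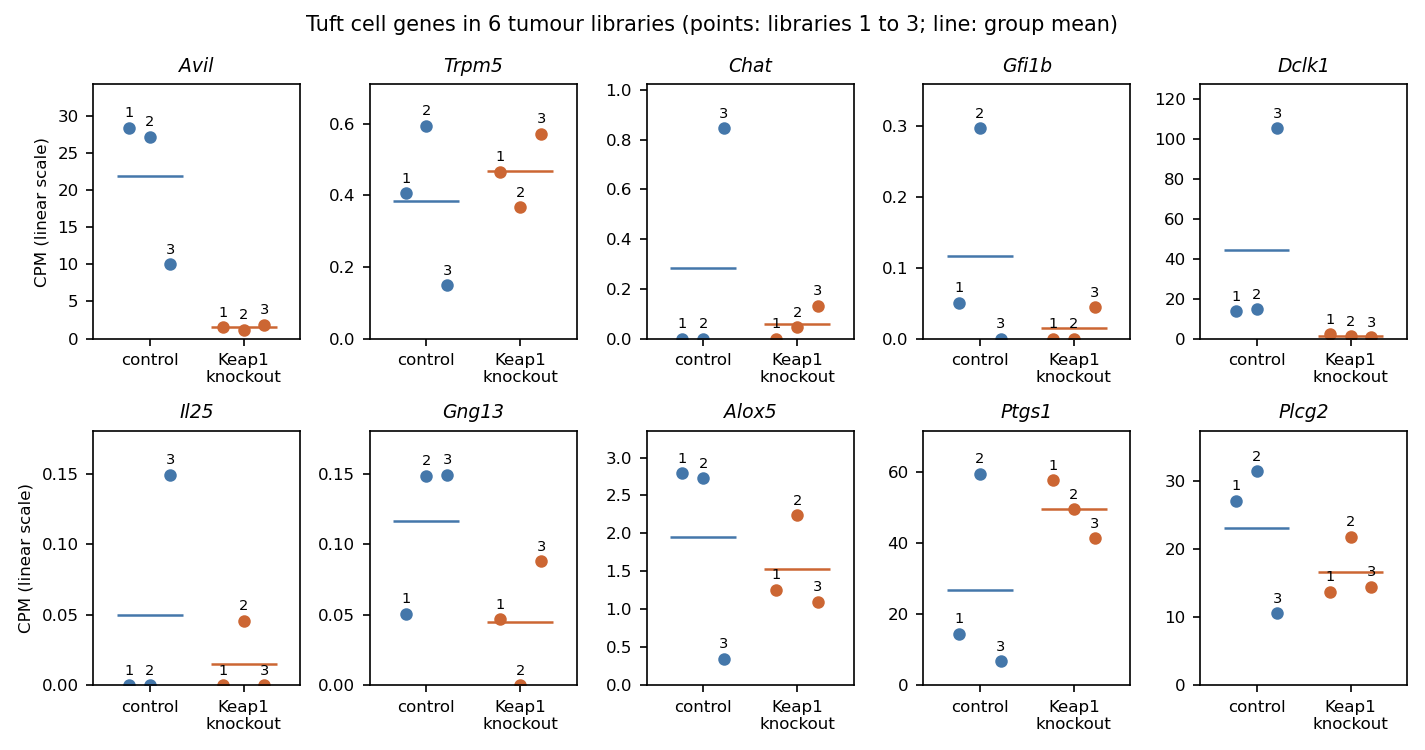
Levels of the 10 tuft cell genes in CPM on linear axes, each panel with its own scale, where points are the 3 control and 3 Keap1 knockout libraries, numbered 1 to 3, and lines are group means. Avil and Dclk1 are the panels in which the groups do not overlap, and Dclk1 in control 3 reached 105 CPM.

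Avil encodes advillin, an actin-bundling protein of the villin family found in the microvilli of tuft cells and in sensory neurons. Avil (ENSMUSG00000025432) had 560, 549 and 201 reads in controls 1 to 3 and 32, 26 and 42 reads in knockouts 1 to 3. These correspond to 28.4, 27.2 and 10.01 CPM in controls and 1.49, 1.19 and 1.85 CPM in knockouts. Controls 1 and 2 were alike, control 3 was lower, and the knockouts were all far below the lowest control. The control mean was 21.9 ± 10.3 CPM and the knockout mean 1.51 ± 0.328 CPM (SD, n = 3 each), 14.5-fold lower. The log2 fold change was -3.85 ± 0.53 (SE), so Avil fell, at an adjusted p of 0.0326 (edgeR). In such bulk samples fewer cells of a type and less RNA per cell cannot be told apart.

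Avil's call was lost without control 2 (adjusted p of 0.0607 by edgeR) and without knockout 1, 2 or 3 (0.143, 0.217 and 0.198), where edgeR called 269 (1.42%), 2, 0 and 0 genes in all (5778, 3758, 3372 and 3321 at an unadjusted p below 0.05), while its log2 fold change stayed between -4.20 and -3.61 in every one of 15 alternatives. Without control 3 its adjusted p was 0.00687, in a fit that called 17.2% of all genes. DESeq2, which called 26.6% of all genes, gave an adjusted p of 1.58e-11, and limma voom, which called 5.96%, gave 0.0353. The gene Tsfm overlaps Avil on the opposite strand in the GENCODE M21 annotation, and whether the authors' counting used strand is not given in the sources used here. Tsfm had 356, 438 and 369 reads in controls and 530, 425 and 701 in knockouts. The knockouts ranked alike in both genes, and the controls did not. Whether some of the few Avil reads in knockouts belong to Tsfm was not tested.

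Dclk1 encodes a doublecortin-like kinase that binds microtubules, widely used as a tuft cell marker in the gut and also present in neurons. Dclk1 (ENSMUSG00000027797) had 268, 294 and 2113 reads in controls 1 to 3 and 48, 26 and 13 reads in knockouts 1 to 3. Levels were 13.6, 14.6 and 105 CPM in controls and 2.24, 1.19 and 0.571 CPM in knockouts. Control 3 supplied 79.0% of the control reads, and controls 1 and 2, close to each other, were still above every knockout. The log2 fold change was -5.05 ± 1.12 (SE), short of the threshold at an adjusted p of 0.0594 (edgeR). Without control 3 it was -3.40 ± 0.58 (SE) and passed, at an adjusted p of 0.0247 by edgeR, in a fit that called 17.2% of all genes. DESeq2 called Dclk1 with an adjusted p of 4.08e-06, where it called 26.6% of all genes, and limma voom with a spread per genotype called it at 0.0431, with 4.77% of all genes called.

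Markers of nerve and neuroendocrine cells moved with Dclk1 in control 3. The summed level of 8 neuronal markers was 230.5, 77.3 and 2112 CPM in controls 1 to 3 and 43.9 to 81.1 CPM in knockouts, with none of the 8 at 0 in either group. That of 9 neuroendocrine markers was 98.0, 23.98 and 5096 CPM in controls and 49.3 to 165 CPM in knockouts, where 1 of the 9 had no reads. Control 2, with 14.6 CPM of Dclk1, had the least neuroendocrine signal of the 6 libraries, and its neuronal sum lay within the range of the knockouts. The part of these cells in the level of Dclk1 in control 3 was not tested.

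The relatives of Dclk1 in the doublecortin family, chosen after their values were seen, were also lower in every knockout library than in any control. Such a separation was seen in 19.1% of all tested genes. Dclk2, a brain-expressed paralog, stood at 15.5, 14.6 and 270 CPM in controls and 8.95, 7.65 and 3.47 CPM in knockouts, a log2 difference of -3.90 (edgeR adjusted p 0.120), or -1.16 without control 3 (0.117). Dclk3 had 10, 14 and 15 reads in controls and 2, 3 and 1 in knockouts and fell by 2.76 on the log2 scale (SE 0.53; edgeR adjusted p 0.0478), a call lost in 9 of 14 alternatives. Dcx, a microtubule protein of migrating neurons, had 381, 6 and 7389 reads in controls and 2, 1 and 0 in knockouts and was not tested. Dcx and Dclk1 thus differed in control 2, where Dcx was nearly absent.

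**Figure D2:**
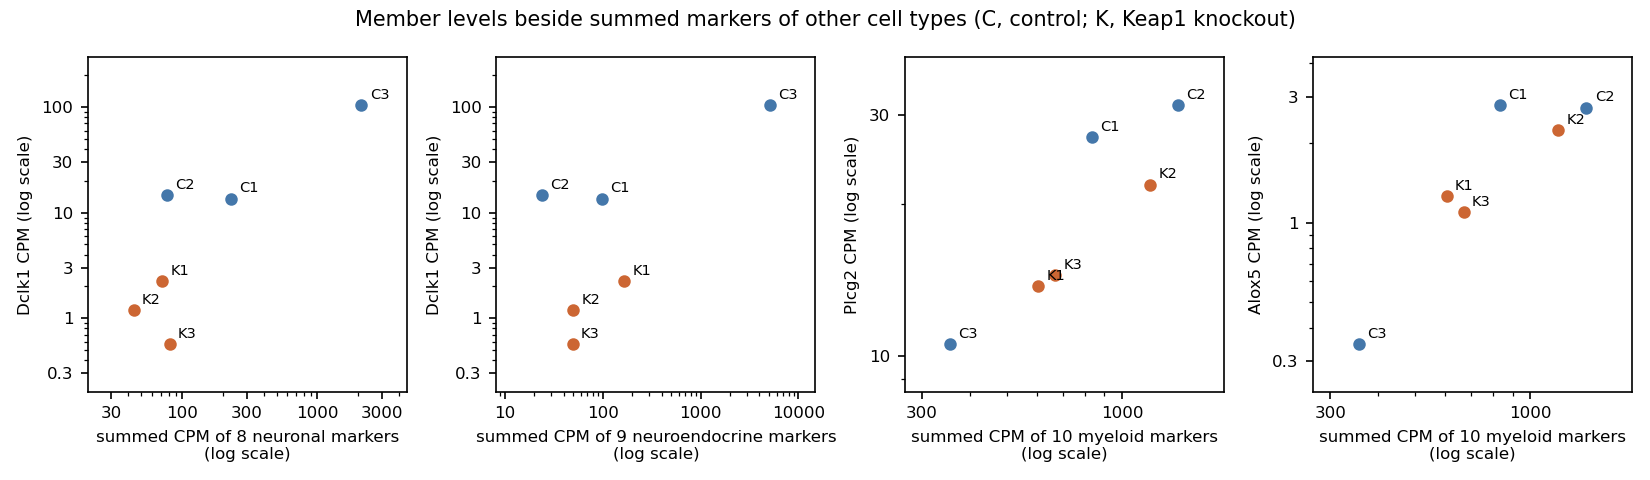
Each point is a library, on log axes in CPM: Dclk1 against the summed neuronal and neuroendocrine markers in the left pair of panels, and Plcg2 and Alox5 against summed myeloid markers in the right pair. Control 3 (C3) is highest for Dclk1 and for both nerve-related sums, and lowest for Plcg2, Alox5 and the myeloid sum.

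The taste-like signalling genes were scarcely detected. Trpm5 (ENSMUSG00000009246), the calcium-gated cation channel at the end of the chain, had 8, 12 and 3 reads in controls and 10, 8 and 13 reads in knockouts. The groups overlapped, and the ratio of pooled control to pooled knockout reads, scaled to library totals, was 0.817 (95% counting interval 0.455 to 1.45, from 23 and 31 reads). Gng13 (ENSMUSG00000025739), the G protein gamma subunit of taste cells, had 1, 3 and 3 reads in controls and 1, 0 and 2 in knockouts, a ratio of 2.57 (0.587 to 15.4). Both genes overlap others on the opposite strand that had far more reads, Tssc4 at Trpm5 with 608 to 1504 reads and Chtf18 at Gng13 with 444 to 2062, so a few of these reads may not be their own.

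Other genes of the taste chain ranged widely in reads. Of 16 listed genes, 7 were tested and edgeR called 0 (0 at an unadjusted p below 0.05, 0 by DESeq2 and 0 by limma voom), with a median log2 fold change of -0.19. The smallest p among them belonged to Trpm4, a channel related to Trpm5, whose control mean was 75.3 ± 43.3 CPM and knockout mean 176 ± 29.3 CPM (SD, n = 3 each), with an adjusted p of 0.171 by edgeR. Plcb2, the phospholipase of taste cells, stood at 8.36 ± 8.17 and 2.24 ± 0.593 CPM, with an adjusted p of 0.195 by edgeR. Without control 3 both passed, at 0.0422 for Trpm4 and 0.0405 for Plcb2, in a fit that called 17.2% of all genes. Without control 2 the log2 fold change of Plcb2 went from -1.90 to -0.75 (0.498). The receptor genes Tas1r2, Tas2r105 and Tas2r131 and the regulator Rgs21 had no read in any library. Gnat3, gustducin alpha, had 15 reads in control 1, 1 in control 2 and none elsewhere, and its partner Gnb3 had 267 reads in control 3, 7 and 13 in controls 1 and 2 and 1 to 3 in knockouts (both chosen after their values were seen).

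Chat encodes choline acetyltransferase, which makes acetylcholine. All 17 control reads of Chat (ENSMUSG00000021919) were in control 3, and knockouts 1 to 3 had 0, 1 and 3 reads. The pooled ratio was 4.68 (95% counting interval 1.53 to 19.1), an interval that covers counting error and not the spread between controls, of which 2 had no read. In the edgeR fit without the filter, where 1.28% of genes were called, Chat had an adjusted p of 0.517. The vesicular acetylcholine transporter gene Slc18a3 lies within the Chat locus on the same strand, and it had 239 reads in control 3, 1 and 0 in controls 1 and 2, and 2, 0 and 0 in knockouts. Reads of the 2 genes cannot be fully told apart in that shared stretch. The choline transporter gene Slc5a7 had 1 read over the 6 libraries. Slc18a3 and Slc5a7 were chosen after their values were seen.

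Of the 10 other genes of acetylcholine handling, 4 were tested and edgeR called 0 (3 at an unadjusted p below 0.05, 1 by DESeq2 and 0 by limma voom), with a median of -3.94. The 2 with the smallest p were high in control 3 alone, and DESeq2 gave neither an adjusted p. Chrnb2, a nicotinic receptor subunit gene, stood at 5.33, 2.23 and 97.1 CPM in controls and 1.45, 1.51 and 2.46 CPM in knockouts, with an adjusted p of 0.127 by edgeR. Ache, which encodes the enzyme that breaks acetylcholine down, stood at 1.02, 1.73 and 20.5 CPM in controls and 1.07, 0.412 and 0.396 CPM in knockouts, with an adjusted p of 0.134. Without control 3 their log2 fold changes went from -4.27 to -1.06 for Chrnb2 (edgeR adjusted p 0.199) and from -3.62 to -1.13 for Ache (0.246). Control 3 is the library with the neuronal and neuroendocrine sums given above, and their part in these levels was not tested.

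Il25 (ENSMUSG00000040770), the tuft cell cytokine that activates group 2 innate lymphoid cells, had 3 reads in control 3, 1 read in knockout 2 and none in the other 4 libraries. With both groups at or under the floor of 3 counts, no fold is given. Its receptor gene Il17rb had 24, 29 and 33 reads in controls and 72, 6 and 37 in knockouts, with an adjusted p of 0.832 by edgeR (chosen after its values were seen). Of 10 genes of type 2 signalling 7 were tested and edgeR called 0 (2 at an unadjusted p below 0.05, 2 by DESeq2 and 1 by limma voom), with a median of 0.02. Il4, a type 2 cytokine gene, had 39, 35 and 87 reads in controls and 288, 250 and 273 in knockouts. All 3 knockouts were above the controls, as in 21.5% of all tested genes, a log2 difference of 2.19 ± 0.48 (SE). Adjusted p were 0.0567 by edgeR, 3.9e-05 by DESeq2 and 0.0362 by limma voom. DESeq2 called 26.6% and limma voom 5.96% of all genes. Il13ra1, a receptor chain for IL-13 and IL-4, stood at 272, 64.8 and 31.6 CPM in controls and 23.8, 17.7 and 20.7 CPM in knockouts, with an adjusted p of 0.103 by edgeR. Without control 3 both passed, at 0.0125 for Il4 and 0.0314 for Il13ra1, in a fit that called 17.2% of all genes. Without control 1 the log2 fold change of Il13ra1 went from -2.57 to -1.21 (0.0982).

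Gfi1b encodes a zinc-finger repressor present in tuft cells. Gfi1b (ENSMUSG00000026815) had 1, 6 and 0 reads in controls 1 to 3 and 0, 0 and 1 in knockouts, a pooled ratio of 7.71 (95% counting interval 0.990 to 347). Most of these few reads were in control 2. Erythroid markers were also highest there: the summed level of 9 erythroid markers was 27.0, 338 and 23.7 CPM in controls and 16.9 to 127 CPM in knockouts, with none at 0. That of 9 megakaryocyte and platelet markers was 627, 14.1 and 11.5 CPM in controls, almost all of the first from Ppbp in control 1 (618 CPM), and 6.85 to 10.7 CPM in knockouts, with 2 of the 9 at 0 in each group. Their part in the Gfi1b reads was not tested.

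Control 2 also held most reads of Pou2f3, Sh2d7 and Rgs13. Pou2f3 (ENSMUSG00000032015) had 3, 17 and 0 reads in controls and 3, 1 and 1 in knockouts. The adaptor gene Sh2d7 had 1, 7 and 0 reads and the signalling regulator gene Rgs13 had 1, 9 and 0 reads in controls, and neither had a read in knockouts (both chosen after their values were seen). Summed over Pou2f3, Sh2d7, Rgs13 and Gfi1b, reads numbered 6, 39 and 0 in controls and 3, 1 and 2 in knockouts. Control 2 stood above the other libraries in each of these genes, at levels of at most 0.842 CPM. None of the 4 entered the test. They were summed after their values were seen, so the lead of control 2 in the sum follows from the choice. Other low tuft cell markers were highest elsewhere. Sh2d6 had 4, 10 and 16 reads in controls and 3, 2 and 20 in knockouts. Sucnr1 had 5, 0 and 0 reads in controls and 1, 0 and 0 in knockouts. Sh2d6 and Sucnr1 were also chosen after their values were seen.

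Among 8 matched genes for transcription factors linked to tuft cells, 5 were tested and edgeR called 0 (2 at an unadjusted p below 0.05, 1 by DESeq2 and 0 by limma voom), with a median of -2.49 and no tested gene with the groups apart. Spib, an ETS factor of tuft and B cells, stood at 1.37, 46.1 and 0.249 CPM in controls and 2.52, 0.321 and 0.835 CPM in knockouts, so control 2 was again the high library. Its log2 fold change of -3.69 became 0.61 without control 2. Ehf, an epithelial ETS factor, stood at 961, 299 and 76.7 CPM in controls and 129, 84.0 and 117 CPM in knockouts, and Sox9, a progenitor factor, at 60.7, 9.66 and 18.6 CPM and 10.96, 8.79 and 7.78 CPM. For both, control 1 was the highest library and the groups overlapped, with adjusted p of 0.173 and 0.162 by edgeR. Without control 3 Ehf passed, at 0.0328, in a fit that called 17.2% of all genes. Without control 1 the log2 fold change went from -2.02 to -0.76 for Ehf and from -1.69 to -0.62 for Sox9 (edgeR adjusted p 0.396 and 0.340).

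The homeobox gene Hmx2 stood at 4.11, 0.991 and 12.1 CPM in controls and 0.793, 0.504 and 1.76 CPM in knockouts, with an adjusted p of 0.157 by edgeR. Hmx3, its neighbour, had 42, 5 and 204 reads in controls and 0, 0 and 1 in knockouts, so that every control was above every knockout, and it was not tested. Gfi1, the paralog of Gfi1b, had 11, 25 and 109 reads in controls and 1, 4 and 18 in knockouts, with an adjusted p of 0.181 by edgeR. Ascl2 had 28, 0 and 8 reads in controls and 5, 7 and 4 in knockouts and was not tested. The high library was thus control 3 for Hmx2, Hmx3 and Gfi1, and control 1 for Ascl2. Without control 3 the log2 fold change went from -2.49 to -1.32 for Hmx2 and from -2.79 to -1.37 for Gfi1 (edgeR adjusted p 0.285 and 0.382).

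Alox5 and Ptgs1 encode the entry enzymes of leukotriene and prostaglandin synthesis. Alox5 (ENSMUSG00000025701), 5-lipoxygenase, had 55, 55 and 7 reads in controls and 27, 49 and 25 in knockouts, or 2.79, 2.73 and 0.349 CPM and 1.26, 2.24 and 1.10 CPM. Control 3 was the lowest library and controls 1 and 2 the highest, so the knockouts lay inside the range of the controls. The log2 fold change was -0.35 ± 0.79 (SE; edgeR adjusted p 0.788), and it changed sign in 3 of 15 alternatives.

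Ptgs1 (ENSMUSG00000047250), cyclooxygenase 1, had 285, 1200 and 133 reads in controls and 1235, 1079 and 938 in knockouts. Levels were 14.5, 59.5 and 6.62 CPM in controls and 57.6, 49.4 and 41.2 CPM in knockouts. Control 2 was the highest of all 6 libraries, and the 3 knockouts lay between it and the other 2 controls. The means were 26.85 ± 28.5 and 49.4 ± 8.18 CPM (SD, n = 3 each), a log2 difference of 0.88 ± 0.78 (SE; edgeR adjusted p 0.472). Without control 2 the log2 fold change was 2.25, with an adjusted p of 0.0692.

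Marker lists of cells that use Ptgs1 did not share one order with it. The summed level of 8 endothelial markers was 255, 529 and 181 CPM in controls and 206 to 314 CPM in knockouts, with control 2 highest and none at 0. That of 9 mast cell and basophil markers was 7.32 to 12.1 CPM in controls and 18.9 to 27.7 CPM in knockouts, with 1 of the 9 at 0 in each group, and most of the knockout sum was the histidine decarboxylase gene Hdc (24.9, 23.0 and 17.8 CPM). The megakaryocyte and platelet sum given above was highest in control 1. Their part in the level of Ptgs1 was not tested.

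Of 14 other genes of eicosanoid synthesis, 13 were tested and edgeR called 0 (5 at an unadjusted p below 0.05, 3 by DESeq2 and 0 by limma voom), with a median of -0.58. In 4 of them the 3 knockouts were all above the 3 controls, as in 21.5% of all tested genes: Pla2g4a, Lta4h and Ptgs2, chosen after their values were seen, and Ptges3. The smallest p belonged to Ptges, the inducible prostaglandin E synthase gene, at 339, 83.1 and 14.7 CPM in controls and 14.9, 9.52 and 4.31 CPM in knockouts. Its adjusted p was 0.0948 by edgeR and 0.00139 by DESeq2, which called 26.6% of all genes. Ptges3, a cochaperone with prostaglandin E synthase activity, had a control mean of 180 ± 21.8 CPM and a knockout mean of 266 ± 26.2 CPM (SD, n = 3 each), with an adjusted p of 0.108 by edgeR. Without control 3 both passed, at 0.0257 for Ptges and 0.0436 for Ptges3, in a fit that called 17.2% of all genes. Without control 1 the log2 fold change of Ptges went from -3.93 to -2.34 (0.138). Genes of the leukotriene branch other than Alox5 differed in level. Alox5ap, its activating protein, had 12 to 47 reads and Ltc4s, leukotriene C4 synthase, 2 to 24 reads per library (both chosen after their values were seen). Lta4h, leukotriene A4 hydrolase, was not low, at 67.0 to 87.5 CPM in controls and 95.4 to 126 CPM in knockouts.

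Plcg2 encodes phospholipase C gamma 2, which acts below antigen and Fc receptors in immune cells and is also expressed in tuft cells. Plcg2 (ENSMUSG00000034330) had 535, 635 and 212 reads in controls and 295, 477 and 329 in knockouts, or 27.2, 31.5 and 10.6 CPM and 13.8, 21.8 and 14.5 CPM. Control 3 was lowest, controls 1 and 2 highest, and the knockouts lay between. The means were 23.1 ± 11.04 and 16.7 ± 4.48 CPM (SD, n = 3 each), a log2 difference of -0.47 ± 0.46 (SE; edgeR adjusted p 0.521), and without control 3 it was -0.81 with an adjusted p of 0.0880.

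Markers of myeloid cells were set beside Plcg2 and Alox5. The summed level of 10 myeloid markers was 833, 1402 and 355.5 CPM in controls 1 to 3 and 604, 1184 and 669 CPM in knockouts 1 to 3, with none at 0. In this sum, as in Plcg2 and Alox5, control 3 was the lowest library and knockout 2 the highest knockout. Control 2 was the highest library in the sum and in Plcg2. Most of the sum in knockouts was lysozyme, Lyz2, with 397, 1004 and 496 CPM. The other 9 markers had negative log2 fold changes, as had 9644 of all 17901 genes tested. In 5 of these markers every knockout was below every control, against 19.1% of all tested genes. The median over the 10 was -1.17, against -0.08 over all tested genes. Of the 10 markers, Fcgr3 was called and fell (adjusted p of 0.0492 by edgeR), as did 1.89% of all tested genes. Lyz2 and Fcgr3 were named after their values were seen. The summed level of 6 B cell markers ran from 9.01 to 19.7 CPM in controls and from 10.9 to 16.2 CPM in knockouts. Their part in the levels of Plcg2 and Alox5 was not tested.

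Of 12 genes that act with PLC gamma, all were tested, all had negative log2 fold changes and edgeR called 0 (4 at an unadjusted p below 0.05, 3 by DESeq2 and 0 by limma voom), with a median of -0.98. Over all 17901 genes tested, 9644 had a negative log2 fold change. Prkcb, a protein kinase C gene, stood at 8.93, 14.2 and 185 CPM in controls and 2.05, 1.92 and 0.835 CPM in knockouts, with an adjusted p of 0.0752 by edgeR, and it was highest in control 3, as Dclk1 was. Without control 3 the log2 fold change of Prkcb went from -5.43 to -2.84 and passed, at 0.0253, in a fit that called 17.2% of all genes. Lcp2, the immune adaptor SLP-76, stood at 5.48, 32.9 and 5.38 CPM in controls and 2.66, 2.70 and 2.77 CPM in knockouts, with an adjusted p of 0.120 by edgeR. Without control 2 the log2 fold change of Lcp2 went from -2.43 to -0.98 (0.153).

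In a wider list of 22 tuft cell markers, 18 were tested and 2 fell, against 1.89% of all genes, and none rose. The median log2 fold change was -0.49, with 6 at an unadjusted p below 0.05, against 30.7% of all tested genes. Kctd12, which encodes an auxiliary subunit of GABA-B receptors, stood at 487, 356 and 224 CPM in controls and 10.5, 11.2 and 11.7 CPM in knockouts. It fell by 4.999 on the log2 scale (SE 0.35; edgeR adjusted p 0.0108). Nrep, a regeneration-related protein gene, stood at 77.9, 141 and 150.4 CPM in controls and 29.3, 37.2 and 17.9 CPM in knockouts and fell by 2.13 (SE 0.38; edgeR adjusted p 0.0436). For both, every control was well above every knockout. The call of Kctd12 was lost without knockout 1, 2 or 3 (adjusted p of 0.0898, 0.151 and 0.148), and that of Nrep without control 2 (0.0728) and without knockout 1, 2 or 3 (0.174, 0.217 and 0.211) and with Xist level as a term (0.109). They passed in 11 and 9 of 15 alternatives. Among the markers without a call, Lrmp (Irag2), Matk and Inpp5d had every knockout below every control (edgeR adjusted p 0.110, 0.0991 and 0.135) and the epithelial keratin gene Krt18 had every knockout above (0.0829), with a control mean of 281 ± 208 CPM and a knockout mean of 1162 ± 101 CPM (SD, n = 3 each). These 4 were chosen after their values were seen. Over all tested genes, the groups were apart with knockouts lower in 19.1% and with knockouts higher in 21.5%.

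**Figure D3:**
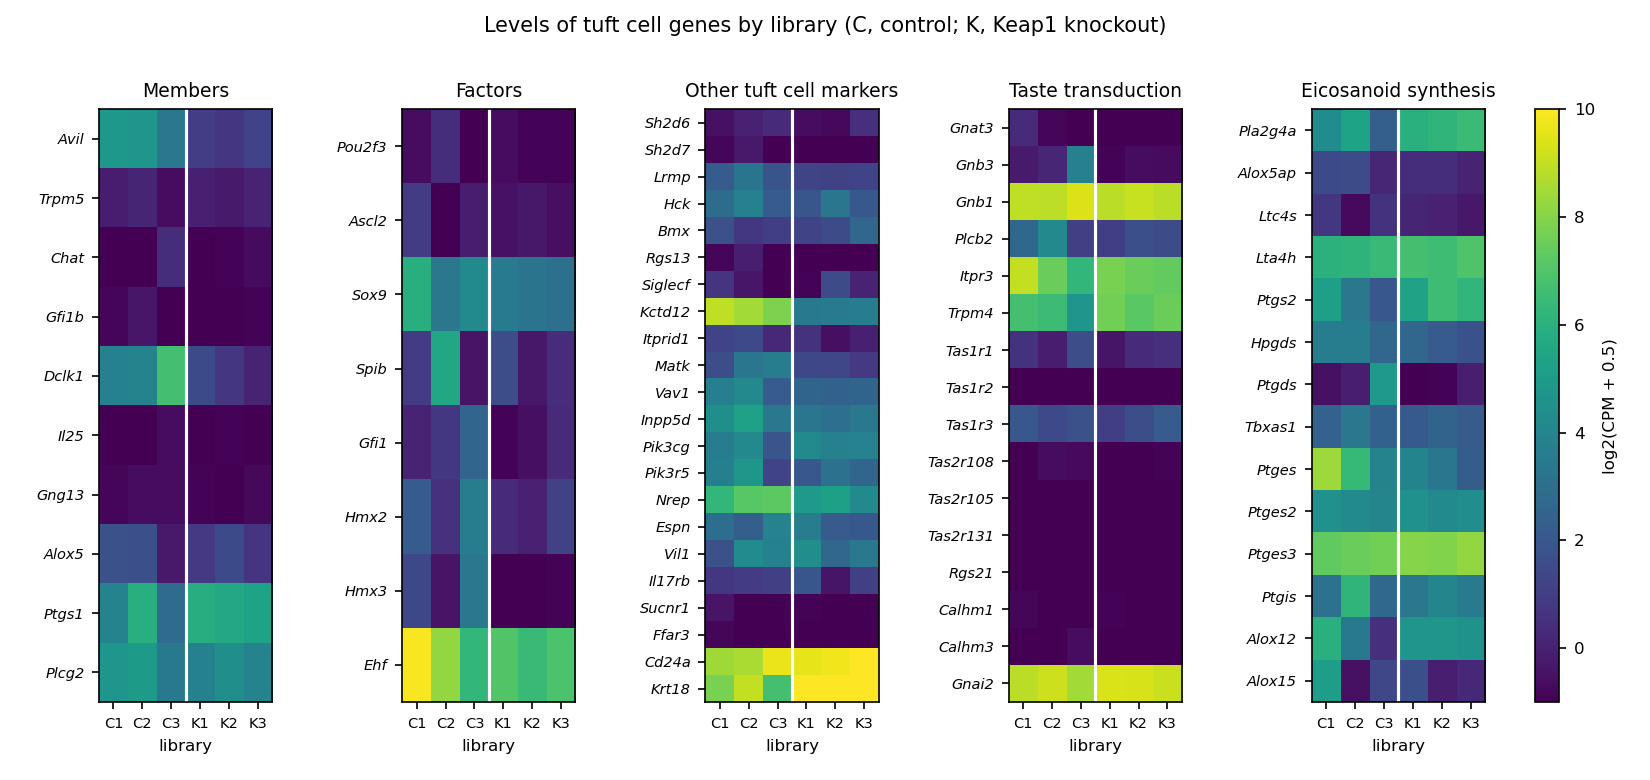
Levels as log2(CPM + 0.5) of the 10 tuft cell genes, the factors, other tuft cell markers, the taste chain and eicosanoid synthesis in controls (C1 to C3) and knockouts (K1 to K3), with the color scale ending at 10. Avil, Dclk1 and Kctd12 are darker in all 3 knockouts, and Trpm5, Chat, Gfi1b, Il25, Gng13 and Pou2f3 are dark in every library.

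Compared per kilobase of exon in GENCODE M21, which may differ from the annotation used for counting, Ptgs1, Avil, Plcg2 and Dclk1 had the highest control means, at 6.91, 6.44, 5.36 and 2.91 CPM per kilobase. Alox5 followed at 0.476, and the 5 untested genes had 0.0468 to 0.150. Over the 3 controls the first 4 of these overlapped, with Dclk1 at 6.88 in control 3 and 0.889 and 0.952 in controls 1 and 2. In knockouts the means were 12.7 for Ptgs1 and 3.88 for Plcg2, followed by 0.444 for Avil, 0.374 for Alox5 and 0.0872 for Dclk1. Avil was thus no longer near Ptgs1 and Plcg2 in that group. Dclk1 was already well below both in controls 1 and 2, and above them in control 3 only.

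The genes most like each of the 4 members with a mean of at least 5 CPM were sought among 17543 other tested genes, as the smallest root mean square difference of mean-centred log2 CPM over the 6 libraries. Nearest to Avil were Maf, Col7a1 and Itgb8, at 0.33, 0.38 and 0.40 on the log2 scale. For Dclk1 they were Rian, Hoxb6 and Scn1a (0.32, 0.33 and 0.37), for Ptgs1 Il34, Dock5 and Ang (0.18, 0.23 and 0.23), and for Plcg2 Gm13816, Rasip1 and Ace (0.11, 0.15 and 0.15). Maf, a leucine zipper factor, stood at 68.6, 90.7 and 51.5 CPM in controls and 5.27, 4.72 and 5.76 CPM in knockouts. Rian, a maternally expressed noncoding RNA, stood at 11.1, 16.9 and 129.7 CPM and 1.45, 1.28 and 0.659 CPM. No 2 of the 4 members shared a near gene, which says little where only 3 were kept for each. Some near genes were themselves low, such as Gm13816 with at most 0.743 CPM in any library.

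The authors' deposited table, in which 17.8% of 22441 genes had an adjusted p below 0.05, listed 7 of the 10 tuft cell genes, with Avil and Dclk1 below that threshold. In the authors' deposited table Avil had a log2 fold change of -3.87 with an adjusted p of 3.2e-10, and Dclk1 one of -5.07 with an adjusted p of 5.46e-06. The same authors' deposited table gave adjusted p of 0.859 for Trpm5, 0.604 for Chat, 0.821 for Alox5, 0.505 for Ptgs1 and 0.594 for Plcg2.

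**Figure D4:**
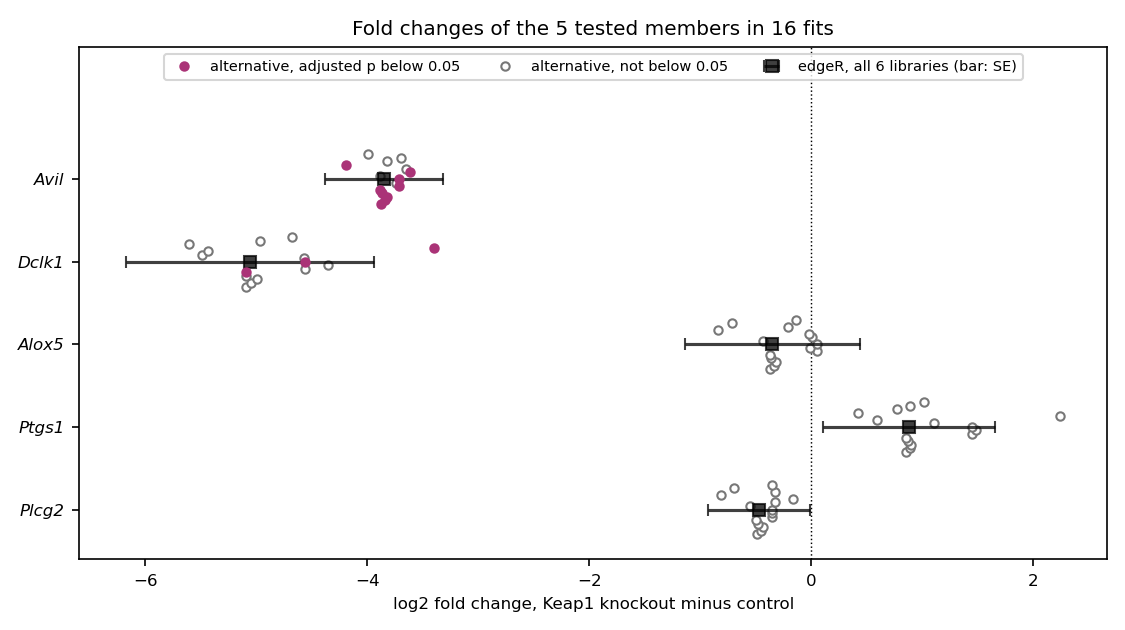
Log2 fold changes, knockout minus control, of the 5 tested tuft cell genes by edgeR with all 6 libraries (squares, bars are SE) and in 15 alternatives (circles, filled where the adjusted p was below 0.05). Avil stayed between -4.20 and -3.61 and passed in 9 of the 15, Dclk1 passed in 3, and Alox5, Ptgs1 and Plcg2 in none.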

How the data were processed

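Read counts of 3 control and 3 Keap1 knockout lung tumour samples were taken from the deposited table of whole-number counts per Ensembl gene, not normalized. The submitters' processing notes name STAR and mm39. How reads were counted (tool, annotation, strand, shared reads) is not given in the sources used here. The authors' deposited comparison (DESeq2, per the submitters' processing notes) gives per symbol a mean normalized signal, a log2 fold change with its SE, a p-value raw and adjusted, and a Wald score. Symbols matched 52073 of 56980 identifiers. Of the listed genes, Pou2af2 and Pou2af3 were not matched and not analysed here, and Irag2 was matched as Lrmp.

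Genes were filtered with filterByExpr, scaled by TMM and tested with edgeR 4.0.16 in R 4.3.3 (robust quasi-likelihood fit, two-sided, genotype as the only term). The SE of a fold change was derived from its F statistic. Counting intervals are exact conditional intervals for a ratio of reads. The fitting step was tested on simulated counts. Other settings tried were scaling by RLE or upper quartile, no filter, 1 CPM in 3 samples, DESeq2 1.42.0, limma voom (limma 3.58.1), the sample number as a block and each sample left out. Chosen after seeing the data were voom with a spread per genotype and a term for Xist. DESeq2 gave an adjusted p for 17442 of the 17901 tested genes, and its share called is of these. Genes without one, among them Chrnb2, Ache, Spib, Prkcb, Ptgis and Dclk2, were counted as not called by DESeq2.

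The 10 genes and the gene lists were chosen with earlier results of these data known. Named were all 10 genes, all factors, in each other list up to 4 called genes or, where none was called, the 2 with the smallest p, and the 3 nearest genes of each member with a mean of at least 5 CPM. Genes that overlap a member were also named. Ppbp, Hdc, Tas1r2, Tas2r105, Tas2r131 and Rgs21 were named after their values were seen, and others are marked where they appear.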

Additional observations from a re-analysis of the deposited data

How the results depend on the processing

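Over the alternatives that keep all samples, Avil kept its direction and passed edgeR with RLE or upper-quartile scaling, without the filter and at 1 CPM in 3 samples, and both limma voom fits and DESeq2. It did not pass with the sample number as a replicate block (-3.74, adjusted p of 0.131) or with Xist level as a term (-3.89, 0.0851), which was chosen after seeing the data, as was the spread per genotype. With the block Kctd12 and Nrep did not pass either (0.112 and 0.138). Dclk1 passed with DESeq2 (-5.09) and with a spread per genotype (-4.56, adjusted p of 0.0431). Tuft cell genes called numbered 2 with DESeq2 and with a spread per genotype, and 0 with the block and with the Xist term (2 at an unadjusted p below 0.05 in each). Over all genes 465 were called without the filter, 4642 by DESeq2, 27 with the Xist term and 0 with the block, where 4026 had an unadjusted p below 0.05. Deviations from the group means had correlations of 0.0176, 0.00012 and 0.0507 between same-numbered samples. Between differently numbered samples they ran from -0.0624 to 0.0533. The labels do not say whether the numbers pair the samples, and these correlations cannot settle it. The numbers are those of the sample titles. In the submitters' sample descriptions the controls carry other numbers, and the knockouts the same ones. Alox5 changed sign in limma voom (0.057, and 0.057 with a spread per genotype) and without control 1, and Spib without control 2 (0.61, against as low as -4.75 without another sample).

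Without each sample in turn, edgeR called from 0 to 3209 genes and from 0 to 2 tuft cell genes (3321 to 6958 genes had an unadjusted p below 0.05). The log2 fold change ran from -4.20 to -3.61 for Avil, -5.61 to -3.40 for Dclk1, -0.84 to 0.0079 for Alox5, 0.42 to 2.25 for Ptgs1 and -0.81 to -0.16 for Plcg2. The cause of these changes was not tested. Depth limits Trpm5, Chat, Gfi1b, Il25 and Gng13, for which only counting intervals or reads are given.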
